A study of Homo sapiens with 15 samples.

Results

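The net state of interleukin-4-treated A549 cells under a substance named only as Compound A was described by setting 3 libraries of IL4 plus Compound A against 3 libraries of untreated cells, 6 of the 15 RNA-seq libraries of the series. The members were taken by their labels, but the comparison and the gene lists were chosen with earlier results of these data known. A549 cells are human lung adenocarcinoma cells grown as a line, so every library comes from 1 tumour. The untreated cells received no IL4, the IL4 plus Compound A cells received 10 ng/ml IL4 and Compound A, and the labels give a time of 48 h. The sources used here do not give the identity, dose or vehicle of Compound A. The other 9 libraries were 3 of IL4 alone, 3 of IL4 with a control siRNA and 3 of IL4 with a siRNA pool against ALOX15, all with the same IL4 dose and time. No group received Compound A without IL4, so what the compound does to unstimulated cells was not measured. The labels leave unsaid whether the 3 libraries of a group were separate cultures. The p-values therefore speak of library-to-library spread, and that spread may be technical.

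IL4 is a cytokine of type 2 immunity that signals through its receptor and JAK kinases to the transcription factor STAT6. In airway epithelium this signal induces the eosinophil chemokine CCL26, the lipoxygenase ALOX15 and feedback inhibitors of the SOCS family, and it takes part in asthma and other allergic disease. A comparison of the treated state with untreated cells shows where expression stood after cytokine and compound together. A gene can stand at its level with IL4 alone, near the untreated level, further away, or apart from untreated although IL4 alone left it in place.

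The libraries held 6407936 to 11031246 counts, and no pair of replicates agreed within sampling noise, with a chi-square per degree of freedom of 1.61 or more. IL4 replicate 1 differed most from its group, at 10.2 and 13.7 against its fellows, beside 2.46 between the other two. It does not enter the comparison with untreated cells but enters the shared estimate of spread. Untreated replicate 1 stood at 5.43 and 5.40 from the other untreated libraries. Among epithelial markers the keratin KRT18 averaged 2363 counts per 1e+06 counts (CPM) in untreated and 3627 in IL4 plus Compound A libraries. The surfactant gene SFTPB and the phosphate transporter SLC34A2, which mark alveolar type II cells, were at 0 in all 15 libraries, although the labels liken the line to that cell type. Of further markers of that cell type, SFTPA1, SFTPC, SFTPD and NAPSA averaged below 1 CPM in every group. ABCA3 was expressed, with means of 37, 60.9 and 53.7 CPM in untreated, IL4 and IL4 plus Compound A libraries. LAMP3 averaged 2, 3 and 4.57 CPM in the same groups. The leukocyte marker PTPRC was at 0 in all 15 libraries. Fewer cells of a kind and less RNA per cell cannot be told apart in bulk RNA.

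Of 12795 genes tested, 1621 were higher and 1728 lower in IL4 plus Compound A than in untreated cells at an adjusted p below 0.05, which is 12.7% and 13.5% of the genes and 26.2% together. At a change of at least 2-fold, 241 genes (1.88%) rose and 293 (2.29%) fell. A further 6223 genes (48.6%) were near zero, which here means that the gene did not pass and that the 95% interval of its log2 change lay within -0.5 to 0.5. The other 3223 genes did not pass and had intervals that reached beyond these limits, so that neither a change nor a near-zero value was shown for them. The median log2 change of all genes was 0.000117. The same fit for IL4 alone against the same untreated libraries gave 1435 genes that rose (11.2%) and 1490 that fell (11.6%), with 275 (2.15%) and 83 (0.649%) of them at least 2-fold and 6397 genes (50%) near zero. These 2 comparisons share their untreated libraries, so the difference of the net states was tested directly, as IL4 plus Compound A against IL4, where 813 genes rose (6.35%), 1033 fell (8.07%) and 6904 (54%) were near zero. Because IL4 replicate 1 stood apart, the IL4 with control siRNA libraries served as a second IL4 reference, against which 238 genes rose (1.86%) and 437 fell (3.42%). The control siRNA itself is a treatment that the compound libraries lack. Across genes, the log2 change of IL4 alone against untreated correlated with transcript GC content at a Spearman of 0.36. The net change with the compound correlated at -0.0603. Comparisons that use the IL4 libraries may carry this trend, and its cause was not tested.

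**Figure D1:**
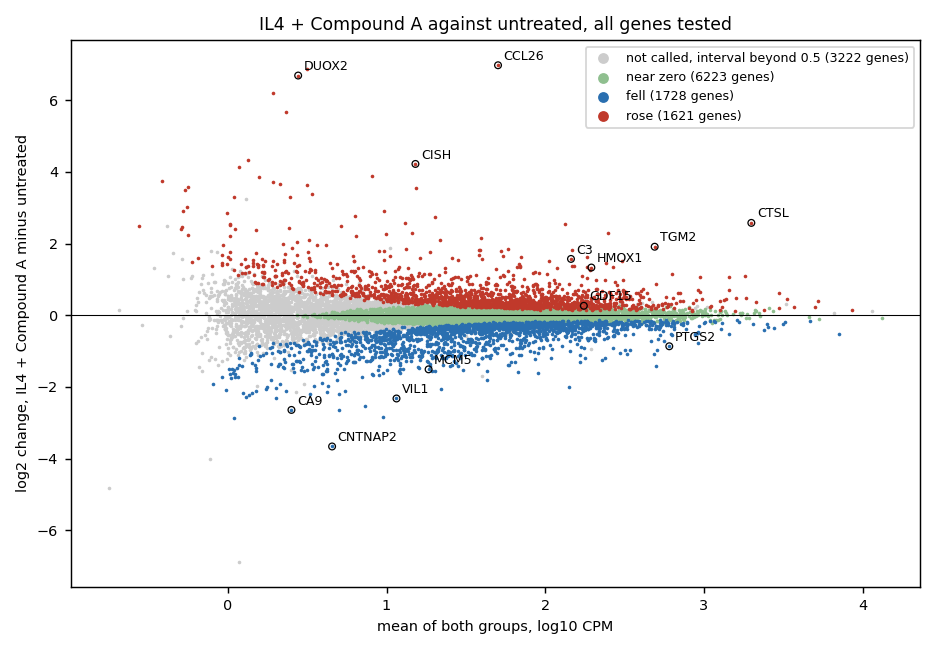
Log2 change of IL4 plus Compound A minus untreated (vertical axis) against the mean of both groups in log10 CPM (horizontal axis), 1 point per tested gene, coloured by outcome, with some genes labelled; 1 gene without counts in either group is not drawn. Among the labelled genes CCL26 (6.97) stands highest and CNTNAP2 (-3.66) lowest, and HMOX1 and CTSL lie among the abundant genes that rose.

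CCL26, the eosinophil-attracting chemokine on chr7:75769533-75789896 (GRCh38), stood at its IL4 level under Compound A. The untreated libraries held 0.627, 0.551 and 1.34 CPM, the IL4 libraries 120, 90.4 and 84.8, and the IL4 plus Compound A libraries 104, 99.3 and 96.8. All treated libraries lay far above the untreated ones, and the IL4 and compound libraries overlapped. The log2 change from untreated was 6.97 ± 0.37 (SE; adjusted p = 6.34e-15), and the difference from IL4 alone was 0.03 ± 0.10 (adjusted p = 0.891), with its 95% interval inside the near-zero limits.

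HMOX1, which encodes the haem-degrading enzyme haem oxygenase 1, went beyond its IL4 level. It stood at 116, 112 and 106 CPM in untreated, 168, 138 and 129 in IL4, and 274, 287 and 278 in IL4 plus Compound A libraries. The 3 groups did not overlap. The log2 change from untreated was 1.33 ± 0.07 (adjusted p = 3.55e-11), or 2.51-fold, and that from IL4 alone was 0.95 ± 0.07 (adjusted p = 2.63e-07). GDF15, a stress-induced secreted factor of the TGF-beta family, showed another pattern, with 171, 142 and 164 CPM in untreated, 146, 106 and 99.4 in IL4, and 167, 209 and 197 in IL4 plus Compound A libraries. The compound and untreated libraries overlapped. Against IL4 alone the gene was higher by 0.71 ± 0.13 on the log2 scale (adjusted p = 0.00199), while against untreated cells the value was 0.26 ± 0.12 (adjusted p = 0.133). That net value passed without IL4 replicate 1 in the fit (adjusted p = 0.0285).

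Across the IL-4/STAT6 list of 45 genes, 20 were expressed enough to be tested, and 12 rose, 3 fell and 5 were near zero, beside 12.7%, 13.5% and 48.6% of all genes. The list median was 1.59 on the log2 scale, beside 0.000117 over all genes. IL4 alone had raised 12 and lowered 2, beside 11.2% and 11.6% of all genes, with a median of 1.30. Members that passed only through their treated libraries had to differ, so these counts do not speak for the untested members. The same limit holds for the counts of the other lists below.

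Among the feedback inhibitors, CISH went from 1.52, 0.771 and 2.54 CPM in untreated to 28.7, 27.9 and 29.8 in IL4 plus Compound A libraries, a log2 change of 4.22 ± 0.38. IL4 alone gave 52.1, 35.5 and 30.6, and the difference of -0.45 ± 0.17 did not pass (adjusted p = 0.0917), except without IL4 replicate 3 (-0.60, adjusted p = 0.0157). SOCS2 rose by 1.28 ± 0.19 over untreated (adjusted p = 2.12e-05) and by 0.67 ± 0.18 over IL4 alone (adjusted p = 0.0164), though its value of 0.41 ± 0.18 against control siRNA did not pass (adjusted p = 0.196). The rise over IL4 of SOCS2 also did not pass without IL4 replicate 1 (0.49, adjusted p = 0.0542), without compound replicate 2 (0.0574) or 3 (0.0912), or with the compared groups alone in the fit (0.0802). TGM2, the protein-crosslinking enzyme transglutaminase 2, held 221, 204 and 192 CPM untreated, 881, 784 and 664 with IL4, and 858, 720 and 744 with IL4 plus Compound A. Its net change was 1.91 ± 0.09, and its difference from IL4 was between -0.19 and 0.19 at 95% confidence. The receptor chain IL4R and STAT6 itself were near zero, at -0.07 ± 0.14 and -0.03 ± 0.07.

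ALOX15 and DUOX2 remained well above the untreated level but below the level reached with IL4 alone. ALOX15, which oxygenates arachidonic and linoleic acid, had 3 counts over the 3 untreated libraries together and 55 over the IL4 plus Compound A libraries, a depth-adjusted count ratio of 20.1 (95% interval 6.53 to 101, for counting error only). Its levels were 0, 0.110 and 0.299 CPM untreated, 6.00, 4.72 and 5.09 with IL4, and 2.59, 2.23 and 1.81 with the compound. The compound libraries fell by 1.23 ± 0.26 on the log2 scale from IL4 alone (adjusted p = 0.00328), and the value of -0.68 ± 0.27 against control siRNA did not pass (adjusted p = 0.163). DUOX2, an epithelial NADPH oxidase that makes hydrogen peroxide, had 1 untreated count and 134 compound counts, a ratio of 147 (25.9 to 5850). It stood at 16.8, 11.1 and 12.4 CPM with IL4 and at 6.59, 4.46 and 5.44 with the compound, a fall of 1.29 ± 0.20 from IL4 (adjusted p = 0.000261) and of 0.86 ± 0.20 from control siRNA (adjusted p = 0.0173). DUOX2 had non-whole counts in 4 libraries and ALOX15 in 2, which arises where reads are shared with other genes.

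The 3 members of the IL-4/STAT6 list that fell were the mucin MUC5AC and the transcription factors SPDEF and FOXA3, which belong to the programme of mucous cells. The share of this list that fell (15%) is close to that of all genes (13.5%), and a theme of mucous cells was not tested. MUC5AC averaged 452 ± 40.5 CPM (SD) untreated, 360 ± 96.1 with IL4 and 232 ± 41.0 with IL4 plus Compound A, and its net log2 change was -0.96 ± 0.16 (adjusted p = 0.000677). SPDEF stood at -1.41 ± 0.20 and FOXA3 at -1.16 ± 0.20. Against IL4 alone, MUC5AC fell by 0.63 ± 0.16 (adjusted p = 0.0228) and SPDEF by 0.78 ± 0.21 (adjusted p = 0.0193). Neither passed against control siRNA, with adjusted p = 0.113 and 0.144.

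Of the 12 largest rises from untreated cells, 6 had 1 to 3 untreated counts. Besides ALOX15 and DUOX2 these were the antisense transcript SLC26A4-AS1 with a count ratio of 167 (29.5 to 6630), the lectin ITLN1 with 105 (18.5 to 4200), FAM26E with 60.9 (16.5 to 509) and the keratin KRT16 with 23.0 (7.53 to 115). The sources used here do not give the strand setting of the counting, so reads of SLC26A4-AS1 and its sense partner cannot be told apart. After CCL26 and CISH, the adhesion molecule KIRREL3 followed at 3.89 ± 0.31, from 1.25, 0.992 and 0.598 CPM untreated to 13.7, 14 and 17.8. The amino acid transporter SLC7A8 stood at 3.66 ± 0.55. TCAF2 at 3.87 ± 0.68 and LOC154761 at 3.71 ± 0.55 are uncertain, with non-whole counts in 10 and 3 libraries.

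A set of genes stood close to their IL4 level under Compound A. These genes were chosen by a rule that required a change of at least 2-fold in both states and a 95% interval of the difference within -0.5 to 0.5, so their likeness is a description. Upwards they included, besides CCL26 and TGM2, the growth factor HBEGF, the collagen chain COL5A1 and the substance P receptor TACR1. HBEGF held 4.75, 4.30 and 5.83 CPM untreated and 24.8, 26.3 and 20.2 in IL4 plus Compound A libraries, beside 21.3, 27.1 and 26.0 with IL4. COL5A1 rose by 2.15 ± 0.12 and TACR1 by 2.91 ± 0.17 from untreated. Downwards they included TM4SF20, a tetraspanin-like membrane protein, the ferroxidase ceruloplasmin (CP), the hyaluronan-degrading CEMIP, the calcium channel subunit CACNA1D, the cytokine TNFSF15 and the phospholipase PLA2G4A. TM4SF20 stood at 727, 730 and 723 CPM untreated, 264, 314 and 317 with IL4, and 289, 258 and 265 with the compound, a net log2 change of -1.42 ± 0.07. Of these, PLA2G4A was nevertheless called lower than with IL4 (-0.25 ± 0.07, adjusted p = 0.0248), but not without compound replicate 2 (0.129) or 3 (0.101), without IL4 replicate 2 (0.0844) or with the compared groups alone (0.145). TM4SF20 was called lower than with IL4 without IL4 replicate 1 (-0.22, adjusted p = 0.00974) and with the GC correction (-0.28, adjusted p = 8.03e-05), and CP with the GC correction (-0.32, adjusted p = 0.0187). Against control siRNA, TM4SF20 fell by 0.30 ± 0.07 (adjusted p = 0.0141) and PLA2G4A by 0.38 ± 0.07 (adjusted p = 0.00396). CP, CEMIP, CACNA1D and TNFSF15 lay at net log2 changes of -1.30, -1.61, -1.28 and -1.27.

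Other genes moved with IL4 and stood near the untreated level with Compound A. The rule for them required a change with IL4, the opposite change between IL4 and IL4 plus Compound A, and a near-zero net value. MATN2, which encodes the matrix protein matrilin 2, held 59.8, 54.1 and 54.2 CPM untreated, 104, 112 and 113 with IL4 and 65.2, 56.5 and 58.3 with IL4 plus Compound A. The compound libraries overlapped the untreated ones and lay below all IL4 libraries. The net log2 change was 0.09 ± 0.08, and the changes from IL4 and from control siRNA were -0.87 ± 0.08 (adjusted p = 9.68e-07) and -0.80 ± 0.08 (adjusted p = 5.14e-06).

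The acetyl-group-binding membrane receptor FIBCD1 had the same course. It stood at 12.6, 13.4 and 12.4 CPM untreated, 37.5, 31.3 and 25.1 with IL4, and 15.1, 13.5 and 12.5 with the compound, where it overlapped the untreated libraries. Its net log2 change was 0.10 ± 0.14, and its change from IL4 was -1.19 ± 0.13 (adjusted p = 7.93e-06). The metalloprotease ADAMTS10 and the related matrix protein PAPLN were near zero net, at 0.04 ± 0.14 and 0.05 ± 0.18, and at -0.84 ± 0.14 and -0.84 ± 0.17 against IL4. MATN2 and these 3 genes were also lower than in the control siRNA libraries, with the largest adjusted p at 0.00534.

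CLDN2, the pore-forming tight junction protein claudin 2, and AKAP12, a scaffold for protein kinase A, lay at the edge of this set. CLDN2 held 227, 202 and 178 CPM untreated, 394, 358 and 315 with IL4, and 193, 154 and 166 with the compound, with a net log2 change of -0.25 ± 0.09 (adjusted p = 0.0541). AKAP12 held 133, 158 and 157 CPM untreated, 75.3, 85.7 and 93.1 with IL4, and 159, 181 and 179 with the compound, with a net change of 0.22 ± 0.08 (adjusted p = 0.0549). The compound libraries of CLDN2 overlapped the untreated ones, and those of AKAP12 lay just above them. Both net values passed without IL4 replicate 1 in the fit, at adjusted p = 0.0397 and 0.00736, without moving in size. Both changes from IL4 were large, at -1.05 ± 0.09 for CLDN2 and 1.03 ± 0.08 for AKAP12, and both also passed against control siRNA. CLDN2 also passed without untreated replicate 3 (net -0.31), compound replicate 1 (-0.33) or IL4 replicate 3 (-0.25), and AKAP12 without untreated replicate 2 (0.28) or 3 (0.27), compound replicate 1 (0.29), or IL4 replicate 2 (0.24) or 3 (0.22). With all libraries kept, CLDN2 passed with the replicate block (adjusted p = 0.0167) and the GC correction (0.0254). AKAP12 passed with both (0.0335 and 0.0154), with RLE (0.0483) or upper-quartile scaling (0.0468), without the filter (0.0494) and with the compared groups alone (0.0154). The near-zero call of these 2 genes therefore rests on the settings, and their net values passed the threshold under many of them.

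Upwards, 5 further genes were lower with IL4 and stood near the untreated level with IL4 plus Compound A. The granin CHGB held 19.8, 22.1 and 23.6 CPM untreated, 14.7, 13.6 and 13.8 with IL4, and 22.9, 20 and 21.8 with the compound. CHGB was higher than in control siRNA libraries by 1.05 ± 0.13 and the endosomal sorting nexin SNX16 by 0.59 ± 0.16, with adjusted p = 5.92e-05 and 0.0351. For the adaptor FYB, the complement receptor C5AR1 and the growth factor PDGFC, the rises over IL4 of 0.69, 0.77 and 0.64 passed, while the values of 0.42, 0.32 and 0.16 against control siRNA did not. PDGFC also did not pass over IL4 without compound replicate 1 (adjusted p = 0.0668), 2 (0.0676) or 3 (0.0612), without IL4 replicate 1 (0.42, adjusted p = 0.126) or with the compared groups alone (0.114). C5AR1 did not pass without compound replicate 2 (0.68, adjusted p = 0.101) or IL4 replicate 2 (0.0571), or with the compared groups alone (0.0622).

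**Figure D2:**
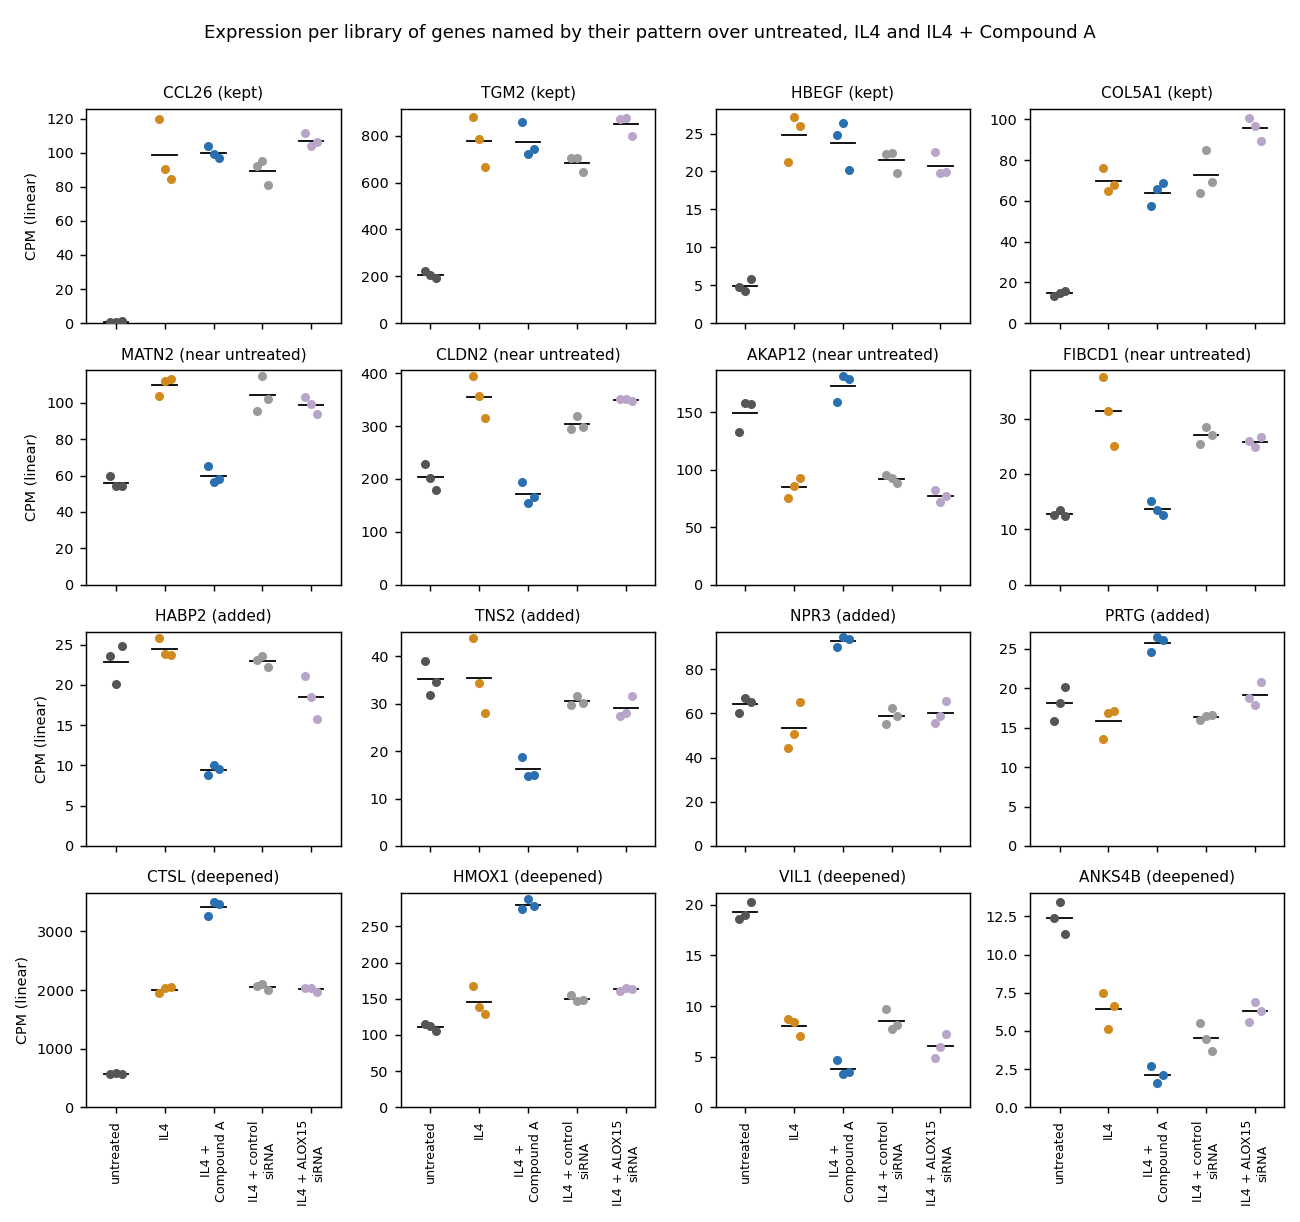
CPM per library (vertical axes, linear and starting at 0) of 16 genes in the 5 groups, with points for the 3 libraries and a line at their mean, in rows for genes that kept the IL4 level, stood near untreated, changed with the compound added, or moved further than with IL4. MATN2 in IL4 plus Compound A libraries lies between 56.5 and 65.2 CPM, beside 54.1 to 59.8 untreated, while CTSL lies between 3263 and 3508 CPM, above every other group.

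A different set differed from untreated cells although IL4 alone was near zero. The plasma serine protease HABP2 held 23.6, 20.2 and 24.8 CPM untreated, 25.8, 23.9 and 23.8 with IL4, and 8.82, 10.1 and 9.52 with IL4 plus Compound A. The compound libraries lay below all untreated and IL4 libraries, with a net log2 change of -1.26 ± 0.12 (adjusted p = 1.04e-07) and a change from IL4 of -1.36 ± 0.12. TNS2, a focal adhesion protein, went from 39.1, 31.9 and 34.5 CPM to 18.8, 14.9 and 15, a net change of -1.12 ± 0.14. The WNT antagonist NKD1 stood at -1.34 ± 0.22, the receptor tyrosine kinase TYRO3 at -1.03 ± 0.16 and the TNF receptor family member TNFRSF19 at -1.07 ± 0.22. These 5 genes were lower than in the control siRNA libraries as well, with adjusted p between 4.42e-06 and 0.0430.

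The rises of this kind were smaller. NPR3, the clearance receptor for natriuretic peptides, held 60.4, 67.1 and 65.2 CPM untreated, 44.3, 50.6 and 65.2 with IL4, and 89.9, 94.6 and 93.7 with the compound, a net change of 0.53 ± 0.10 (adjusted p = 0.000348). The membrane protein PRTG rose by 0.52 ± 0.11 and BEX2 by 0.81 ± 0.15, and NPR3, PRTG and BEX2 all passed against control siRNA. The lipoprotein lipase inhibitor ANGPTL4 rose by 0.82 ± 0.18, the interleukin-1 receptor accessory protein IL1RAP by 0.54 ± 0.14 and the decoy receptor TNFRSF10D by 0.48 ± 0.11. Their values against control siRNA, 0.46, 0.43 and 0.31, did not pass.

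CTSL, the lysosomal protease cathepsin L on chr9:87725519-87731393, stood further from untreated cells with IL4 plus Compound A than with IL4 alone, in the same direction. It held 566, 583 and 569 CPM untreated, 1946, 2034 and 2047 with IL4, and 3263, 3508 and 3460 with IL4 plus Compound A. The groups did not overlap. The net change was 2.58 ± 0.04 on the log2 scale (5.96-fold; adjusted p = 1.75e-19), and that from IL4 alone was 0.76 ± 0.04 (adjusted p = 1.23e-09), with 0.73 ± 0.04 against control siRNA. The Kunitz inhibitor TFPI2 rose by 1.33 ± 0.08 net and by 0.65 ± 0.08 over IL4, from 67.0, 70.4 and 64.1 CPM untreated to 169, 175 and 162. The integrin chain ITGA10 rose by 1.64 ± 0.20 and the potassium channel KCNH1 by 1.52 ± 0.16, of which ITGA10 also passed against control siRNA (adjusted p = 0.0122) and KCNH1 did not (0.127). The rise of ITGA10 over IL4 (0.70) did not pass without compound replicate 2 (adjusted p = 0.0697), without IL4 replicate 2 (0.0623) or with the compared groups alone (0.0656).

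Falls of this kind included 2 genes of the microvillus. VIL1, which encodes the microvillar actin bundler villin, held 18.6, 18.9 and 20.3 CPM untreated, 8.73, 8.39 and 7.05 with IL4, and 4.71, 3.29 and 3.48 with the compound. Its net change was -2.32 ± 0.17 (adjusted p = 1.2e-09) and its change from IL4 -1.07 ± 0.19 (adjusted p = 0.000841). ANKS4B, a scaffold of the intermicrovillar complex, went from 12.4, 13.4 and 11.4 CPM to 2.71, 1.59 and 2.12, at -2.54 ± 0.22 net and -1.59 ± 0.24 from IL4. The small heat shock protein CRYAB at -1.51 ± 0.21 and the mitosis-linked FAM64A at -1.67 ± 0.22 were also lower than in both IL4 references. These genes are few and were picked by their values, so no theme was tested.

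Among the 12 largest falls from untreated cells, all except UGT2B15 had also passed downwards with IL4 alone. CNTNAP2, a neurexin-family adhesion molecule, went from 8.16, 8.04 and 9.12 CPM untreated to 0.546, 1.31 and 1.04 with IL4 and 0.235, 1.06 and 0.604 with the compound, a net log2 change of -3.66 ± 0.40. C9orf152 fell from 15.9, 16.4 and 17.8 CPM to 2.71, 2.12 and 2.12 (-2.83 ± 0.25) and was below both IL4 references. Its fall from IL4 (-0.94) did not pass without compound replicate 2 (adjusted p = 0.116) or 3 (0.0863), without IL4 replicate 2 (0.0686) or with the compared groups alone (0.0533). The ephrin receptor EPHB3 fell by 2.65 ± 0.28 and the angiopoietin ANGPT1 by 2.19 ± 0.28. ALB, CA9, IGFBP5 and GPD1 fell from means of 1.94 to 4.35 CPM untreated to 0.242 to 0.681 CPM. UGT2B15, at -2.22 ± 0.54, did not pass with IL4 alone (-0.67 ± 0.40, adjusted p = 0.229), and it had non-whole counts in 2 libraries.

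The 2 cell cycle lists had the lowest medians of the 16 lists. Of 49 tested members of the mitosis and spindle list, 49 fell from untreated, with a median log2 change of -1.04. Of 50 members of the DNA replication and S phase list, 43 fell, 3 were near zero and none rose, with a median of -0.97. The other 4 did not pass and had intervals that reached beyond the near-zero limits. Across all genes 13.5% fell and the median was 0.000117. IL4 alone had lowered 46 of the 49 mitotic and 27 of the 50 replication members (11.6% of all genes fell), with medians of -0.63 and -0.40. In the direct comparison with IL4, 25 mitotic and 28 replication members fell (8.07% of all genes did), with medians of -0.38 and -0.48 and none that rose. Against control siRNA, 11 and 13 fell, with medians of -0.26 and -0.33 (3.42% of all genes fell).

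CDK1, the kinase that drives entry into mitosis, held 68.1, 57.5 and 60.5 CPM untreated, 28.2, 37.2 and 35.4 with IL4, and 30.2, 24.8 and 27.0 with IL4 plus Compound A. The compound libraries lay below the untreated ones and overlapped those of IL4. The net change was -1.19 ± 0.11 (adjusted p = 4.61e-08), and the difference from IL4 of -0.30 ± 0.11 did not pass (adjusted p = 0.0812). It passed without IL4 replicate 1 (-0.41, adjusted p = 0.00966) and with a correction for GC content (-0.46, adjusted p = 0.00178). HJURP, the chaperone that loads centromeric histone CENPA, went from 99.8, 83.8 and 78.2 CPM to 40.1, 34.0 and 31.4, at -1.31 ± 0.11. The chromosomal passenger proteins AURKB and CDCA8 fell by 1.47 ± 0.18 and 1.36 ± 0.15, and the kinetochore component SPC25 by 1.36 ± 0.25.

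MCM5, a subunit of the replicative helicase, held 31.5, 22.4 and 27.9 CPM untreated, 25.5, 21.9 and 14.9 with IL4, and 10.2, 9.66 and 8.76 with IL4 plus Compound A. All compound libraries lay below all libraries of the other 2 groups. Its net change was -1.51 ± 0.17, while the IL4 value of -0.40 ± 0.15 did not pass (adjusted p = 0.0598) and the change from IL4 was -1.11 ± 0.17 (adjusted p = 0.000347). The licensing factor CDT1 held 10.0, 8.71 and 8.22 CPM untreated, 13.1, 7.08 and 6.53 with IL4 and 2.94, 4.03 and 4.08 with the compound. GINS2, a subunit of the helicase complex, went from 15.7, 11.7 and 13.4 CPM to 4.94, 4.25 and 3.48, at -1.68 ± 0.22 net and -1.24 ± 0.23 from IL4. The activator E2F2 fell by 2.20 ± 0.29, the nuclease EXO1 by 1.56 ± 0.14 and MCM10 by 1.53 ± 0.17. CDT1 and E2F2 did not pass against control siRNA (adjusted p = 0.0803 and 0.0584), while MCM5 (0.00196) and GINS2 (0.0317) did.

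Promoter windows are shown for 4 of these genes because members of the 2 lists moved together, and because textbook elements of their promoters differ between mitotic and replication genes. The windows run from 250 bases before to 50 after the start in RefSeq (GRCh38.p14) and are printed 5′ to 3′ on the gene's strand. Mitotic genes often carry a cell cycle homology region (TTTGAA) near a CCAAT box, and replication genes an E2F site (TTTCCCGC or TTTGGCGC). Each motif was searched on both strands, so reverse complements count as well. The first motif can overlap a reversed CCAAT box. Capitals mark matches, of TTTGAA and CCAAT in the first pair and of the E2F forms in the last pair. CDK1 lies on the plus strand at chr10:60778228-60778527 and HJURP on the minus strand at chr2:233854486-233854785. GINS2 lies on the minus strand at chr16:85688905-85689204 and CDT1 on the plus strand at chr16:88803539-88803838.
CDK1: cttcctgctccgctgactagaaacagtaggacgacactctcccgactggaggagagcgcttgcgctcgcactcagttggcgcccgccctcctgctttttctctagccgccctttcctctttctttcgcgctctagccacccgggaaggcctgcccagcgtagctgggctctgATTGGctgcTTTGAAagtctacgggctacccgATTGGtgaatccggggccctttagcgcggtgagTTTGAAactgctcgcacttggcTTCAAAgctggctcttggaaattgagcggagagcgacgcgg
HJURP: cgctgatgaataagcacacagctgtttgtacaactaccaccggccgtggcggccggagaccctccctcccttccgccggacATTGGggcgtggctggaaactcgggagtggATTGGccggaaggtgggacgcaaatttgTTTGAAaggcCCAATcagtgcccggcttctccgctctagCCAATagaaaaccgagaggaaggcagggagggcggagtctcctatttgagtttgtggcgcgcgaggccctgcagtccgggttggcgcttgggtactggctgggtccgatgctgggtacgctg
GINS2: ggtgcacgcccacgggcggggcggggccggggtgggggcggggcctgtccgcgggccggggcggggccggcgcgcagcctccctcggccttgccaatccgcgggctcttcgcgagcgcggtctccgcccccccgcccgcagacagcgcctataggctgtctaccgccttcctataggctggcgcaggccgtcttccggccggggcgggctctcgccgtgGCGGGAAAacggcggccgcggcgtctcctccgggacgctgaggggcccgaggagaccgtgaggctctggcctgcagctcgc
CDT1: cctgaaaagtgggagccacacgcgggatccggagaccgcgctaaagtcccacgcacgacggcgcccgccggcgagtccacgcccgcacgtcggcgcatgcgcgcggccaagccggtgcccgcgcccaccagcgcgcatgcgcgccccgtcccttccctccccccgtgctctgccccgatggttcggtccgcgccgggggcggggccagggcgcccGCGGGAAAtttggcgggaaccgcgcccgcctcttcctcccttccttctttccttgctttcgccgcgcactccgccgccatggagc

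TTTGAA was present in 33 of 52 windows of 42 mitotic genes (63.5%) and in 3 of 59 windows of 43 replication genes (5.08%), beside 15.2% of all 35116 windows. A CCAAT box was present in 76.9% and 52.5%, beside 34.6% of all. The first E2F form was present in 1.92% and 20.3%, beside 1.63%, and the second in 1.92% and 16.9%, beside 0.652%. CDK1 and HJURP each held 5 matches of TTTGAA or CCAAT, and GINS2 and CDT1 each held 1 match of an E2F form. CDK1 has 2 windows, and the one with the most matches is printed. The printed genes were a fixed choice, not a random draw from the lists, so their matches do not speak for other members. A match is a run of letters and says nothing about binding in these cells.

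**Figure D3:**
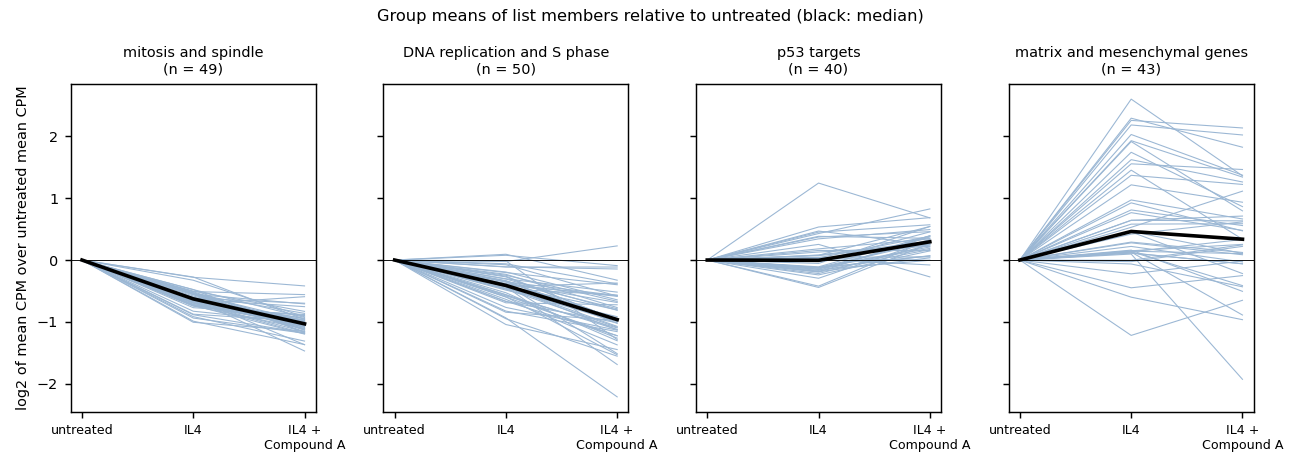
Log2 of each member's mean CPM over its untreated mean (vertical axis) in untreated, IL4 and IL4 plus Compound A groups (horizontal axis), 1 thin line per tested member of 4 lists, with the median in black. Mitosis and replication members lie lowest with the compound, at tested medians of -1.04 and -0.97 against untreated, while p53 targets (0.29) and matrix genes (0.33) lie higher.

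Targets of p53 include genes that restrain the cell cycle and take part in DNA repair and apoptosis. Of 40 members, 21 rose (52.5%, beside 12.7% of all genes), none fell (13.5% of all genes did) and 13 were near zero (32.5%, beside 48.6%), with a median of 0.29. Without IL4 replicate 1 in the fit, with the compared groups alone or with the GC correction, 1 member fell. IL4 alone had raised 9 and lowered 3, beside 11.2% and 11.6% of all genes, with a median of -0.01. In the direct comparison with IL4 18 rose and 2 fell, beside 6.35% and 8.07% of all genes. The cyclin-dependent kinase inhibitor CDKN1A held 325, 310 and 293 CPM untreated, 479, 442 and 424 with IL4 and 482, 516 and 495 with the compound. Its net change was 0.68 ± 0.06 (adjusted p = 1.66e-08), and the difference from IL4 was 0.15 ± 0.06 (adjusted p = 0.0777). That difference passed without IL4 replicate 1 (0.20, adjusted p = 0.0108), with the GC correction (0.28, adjusted p = 2.05e-05) and with the replicate block (adjusted p = 0.0405). GADD45A, a stress sensor linked to growth arrest, rose further, from 55.1, 47.8 and 52.0 CPM untreated over 69.5, 66.8 and 72.2 to 89.9, 94.8 and 90, at 0.83 ± 0.07 net and 0.40 ± 0.07 from IL4. The ribonucleotide reductase subunit RRM2B held 126, 140 and 150 CPM untreated and 196, 199 and 212 with the compound (0.55 ± 0.13), and the kinase PLK3 rose by 0.56 ± 0.15. The ubiquitin ligase MDM2, a further target, did not pass (0.31 ± 0.13, adjusted p = 0.0893).

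Of 27 genes of cholesterol synthesis and uptake, 14 fell (51.9%, beside 13.5% of all genes), 1 rose (3.7%, beside 12.7%) and 11 were near zero (40.7%, beside 48.6%), with a median of -0.26. The count that fell was 9 without untreated replicate 1 or compound replicate 3, and the near-zero count was 7 without IL4 replicate 1. The 1 gene that rose was the sterol carrier STARD4 (0.54 ± 0.17, adjusted p = 0.0329). It no longer passed without untreated replicate 2 or 3 or compound replicate 1 or 2, or without the filter. Without IL4 replicate 1, 2 genes rose. IL4 alone had lowered 5 and raised 3 (11.6% and 11.2% of all genes). Against IL4 15 members fell with the compound, where 8.07% of all genes fell, and against control siRNA 10 fell, beside 3.42% of all genes. The mevalonate kinase MVK held 21.5, 14.6 and 11.9 CPM untreated, 15.6, 13.6 and 12.4 with IL4 and 11.2, 6.58 and 8.61 with IL4 plus Compound A. The compound libraries lay below the untreated ones, and the net change was -0.90 ± 0.20 (adjusted p = 0.00145). Its change from IL4 was -0.66 ± 0.20 (adjusted p = 0.0332), and the value of -0.22 ± 0.21 against control siRNA did not pass (adjusted p = 0.596). The change from IL4 also did not pass without compound replicate 2 (-0.48, adjusted p = 0.176) or 3 (0.0883), without IL4 replicate 1 (0.0858) or 2 (0.0551), or with the compared groups alone in the fit (0.0851). The thiolase ACAT2 held 51.9, 50.8 and 44.5 CPM untreated, 34.4, 36.4 and 34.3 with IL4 and 36.6, 29.9 and 27.9 with the compound. Its net change was -0.64 ± 0.11 (adjusted p = 9.95e-05), and its difference from IL4 of -0.15 ± 0.11 did not pass (adjusted p = 0.373).

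Of 29 genes of fatty acid synthesis and desaturation, 9 fell (31%, beside 13.5% of all genes), 4 rose (13.8%, beside 12.7%) and 10 were near zero (34.5%, beside 48.6%), with a median of -0.13. The share that rose is close to that of all genes. The acyl-CoA synthetase ACSL5 stood at -1.61 ± 0.47 (adjusted p = 0.00825), but without untreated replicate 2 or compound replicate 1 its values of -1.31 and -1.36 did not pass. The glucose-sensing factor MLXIPL fell by 1.08 ± 0.27. The elongase ELOVL7 rose by 0.89 ± 0.14, from 13.8, 16.1 and 17.0 CPM to 27.4, 29.8 and 28.7, and its relative ELOVL2 fell by 0.85 ± 0.13. SCD, the abundant stearoyl-CoA desaturase, held 2105, 1985 and 1906 CPM untreated, 2808, 2921 and 2684 with IL4 and 2458, 2039 and 2079 with the compound. It was near zero net at 0.13 ± 0.06 and fell by 0.36 ± 0.06 from IL4 (adjusted p = 0.000776). Its net value passed without untreated replicate 1 (0.19) or compound replicate 2 (0.20).

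Of 43 tested matrix and mesenchymal genes, 21 rose (48.8%, beside 12.7% of all genes), 6 fell (14%, beside 13.5%) and 8 were near zero (18.6%, beside 48.6%). The share that fell is close to that of all genes. The median was 0.33 beside 0.53 for IL4 alone, and 3 fell without compound replicate 3. Against IL4, 16 fell and 1 rose, beside 8.07% and 6.35% of all genes, and against control siRNA 11 and 1, beside 3.42% and 1.86%. Fibrillin 1 (FBN1) held 18.0, 16.5 and 16 CPM untreated, 80.2, 85.9 and 81.7 with IL4 and 60.1, 61.8 and 57.1 with the compound. It rose by 1.82 ± 0.08 net and was lower than with IL4 at -0.47 ± 0.07 (adjusted p = 0.000172). The actin-binding TAGLN rose by 1.99 ± 0.30 from 0.807, 1.10 and 0.747 CPM. The proteoglycan LUM fell by 1.91 ± 0.53 from a mean of 1.28 CPM. COL1A1, the main chain of type I collagen, held 7.62, 5.29 and 6.87 CPM untreated, 22.5, 15.9 and 15.8 with IL4 and 9.65, 7.33 and 8.01 with the compound. The untreated and compound libraries overlapped (0.33 ± 0.18, adjusted p = 0.200), and the fall of 1.11 ± 0.16 from IL4 passed (adjusted p = 0.000194). Tenascin C (TNC) rose by 1.42 ± 0.41, but the values of 1.16 and 1.19 without untreated replicate 1 or compound replicate 2 did not pass.

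Of 28 tested epithelial junction genes, 8 fell (28.6%, beside 13.5% of all genes), 3 rose (10.7%, beside 12.7%) and 10 were near zero (35.7%, beside 48.6%), with a median of -0.17. The count that fell was 4 without untreated replicate 1 or compound replicate 2, where 1284 and 1183 of all genes fell in place of 1728, and 13 without IL4 replicate 1, where 2272 did. The tight junction scaffold TJP3 fell by 1.27 ± 0.28, from 13.1, 8.6 and 9.86 CPM untreated to 4.82, 3.08 and 5.59 with the compound. CLDN4 at -1.35 ± 0.39 and the cadherin CDH16 at -1.03 ± 0.31 passed (adjusted p = 0.00964 and 0.0142), but not without untreated replicate 1 (-1.06 and -0.93) or compound replicate 2 (-1.17 and -1.01). CDH16 lay at 3.14, 2.42 and 2.99 CPM untreated, 6.41, 4.33 and 3 with IL4 and 1.41, 1.38 and 1.36 with the compound. E-cadherin (CDH1), the core adhesion molecule of epithelia, was near zero at -0.05 on the log2 scale.

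Of 35 tested type I interferon response genes, 14 rose (40%, beside 12.7% of all genes), 3 fell (8.57%, beside 13.5%) and 3 were near zero (8.57%, beside 48.6%), with a median of 0.45. IL4 alone had raised 18, beside 11.2% of all genes, with a median of 0.48. The count that fell was 1 without untreated replicate 1. The near-zero count was 1 without any 1 of the untreated libraries or compound replicate 1 or 2, or with DESeq2. The transcription factor IRF1 held 10.3, 9.48 and 10.3 CPM untreated and 21.4, 21.4 and 21.3 with the compound, at 1.09 ± 0.10, beside 24.6, 23.3 and 24.8 with IL4. The ISG15-conjugating enzyme UBE2L6 rose by 0.85 ± 0.12 and IFI35 by 0.65 ± 0.14. MX1, an antiviral GTPase, rose by 2.52 ± 0.67 from 0.358, 0.441 and 0 CPM to 1.18, 1.80 and 2.42. The list has 48 genes, and members tested only through their treated libraries had to differ. The share that rose therefore does not speak for the untested members. The 3 that fell were OAS1, OAS3 and TRIM14, at -0.63, -0.49 and -0.49.

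Of 30 tested NF-kB and inflammatory cytokine genes, 10 rose (33.3%, beside 12.7% of all genes), 2 fell (6.67%, beside 13.5%) and 10 were near zero (33.3%, beside 48.6%), with a median of 0.09. The complement component C3 held 70.7, 75.3 and 74.0 CPM untreated, 385, 336 and 337 with IL4 and 221, 224 and 207 with IL4 plus Compound A. The 3 groups did not overlap, the net change was 1.57 ± 0.07 (adjusted p = 8.37e-13) and the change from IL4 was -0.70 ± 0.06 (adjusted p = 9.68e-07). The cytokine IL11 rose by 2.73 ± 0.15, from 4.39, 5.95 and 5.83 CPM to 31.2, 37.8 and 36.9. The NF-kB subunits RELB and NFKB2 rose by 1.31 ± 0.13 and 1.06 ± 0.08. The 2 that fell were PTGS2, the inducible cyclooxygenase, and the regulator NFKBIZ (-0.66 ± 0.22). PTGS2 held 712, 806 and 828 CPM untreated, 309, 365 and 400 with IL4 and 427, 432 and 428 with the compound, at -0.87 ± 0.08. Only 1 gene fell without any 1 of the untreated libraries or compound replicate 1 or 3, or with DESeq2. In contrast, 4 fell without IL4 replicate 1 or with the compared groups alone.

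HMOX1 is one of the targets of NRF2, the regulator of antioxidant defence. Of 40 targets tested, 18 fell (45%, beside 13.5% of all genes), 7 rose (17.5%, beside 12.7%) and 14 were near zero (35%, beside 48.6%), with a median of -0.15. IL4 alone gave 16 that fell and 7 that rose, beside 11.6% and 11.2% of all genes. The aldose reductase AKR1B1 held 1228, 1192 and 1094 CPM untreated and 2527, 2476 and 2456 with the compound, at 1.09 ± 0.05, with 2462, 2531 and 2368 for IL4. Its difference was 0.02 ± 0.05 from IL4 and -0.21 ± 0.05 from control siRNA (adjusted p = 0.0169). The glutathione peroxidase GPX2 held 747, 631 and 601 CPM untreated, 467, 412 and 350 with IL4 and 344, 289 and 298 with the compound, at -1.09 ± 0.09. The carbonyl reductase CBR3 fell by 1.56 ± 0.33 and NQO1, a quinone reductase, lay at -0.40. The ligase subunit GCLM and the cystine transporter SLC7A11 were near zero at 0.19 and 0.02.

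Of 50 genes of the unfolded protein and integrated stress responses, 14 rose (28%, beside 12.7% of all genes), 6 fell (12%, beside 13.5%) and 26 were near zero (52%, beside 48.6%), with a median of 0.09. The shares that fell and were near zero are close to those of all genes. The count that fell was 3 without untreated replicate 1 or compound replicate 2 and 2 without compound replicate 3. PPP1R15A, the phosphatase subunit that ends translational arrest, held 110, 128 and 130 CPM untreated and 174, 220 and 201 with the compound, at 0.70 ± 0.08. It was also higher than with IL4 (0.35 ± 0.08, adjusted p = 0.00883, but 0.0918 without compound replicate 2 and 0.0752 with the compared groups alone) and control siRNA (0.36 ± 0.08, adjusted p = 0.0140). CRELD1 rose by 0.75 ± 0.12 and ATF3 by 0.61 ± 0.08. The chaperone partner DNAJB9 stood at 0.51 ± 0.16 (adjusted p = 0.0349) and did not pass without untreated replicate 1 (0.47) or 2 (0.53), or without compound replicate 1 (0.54), 2 (0.52) or 3 (0.53). The master regulator ATF4 and its target ASNS were near zero, both at -0.04.

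Of 41 tested hypoxia and glycolysis genes, 12 rose (29.3%, beside 12.7% of all genes), 9 fell (22%, beside 13.5%) and 15 were near zero (36.6%, beside 48.6%), with a median of 0.04. Without compound replicate 2, 5 fell, and 1183 of all genes in place of 1728. The hexokinase HK1 held 151, 134 and 134 CPM untreated, 377, 343 and 297 with IL4 and 305, 260 and 269 with the compound. It rose by 0.99 ± 0.08 (adjusted p = 7.9e-09) and the regulatory enzyme PFKFB4 by 1.03 ± 0.22. The carbonic anhydrase CA9, a classical hypoxia target, fell by 2.64 ± 0.39, from 5.56, 3.31 and 4.18 CPM untreated to 1.06, 0.531 and 0.453 with the compound.

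Of 26 tested genes of eicosanoid and oxylipin metabolism, 12 fell (46.2%, beside 13.5% of all genes), 2 rose (7.69%, beside 12.7%) and 5 were near zero (19.2%, beside 48.6%), with a median of -0.27. The 2 that rose were ALOX15 and the epoxide hydrolase EPHX2 (0.38). Only 1 rose without compound replicate 1 or 2, with upper-quartile scaling, without the filter or with DESeq2. PLA2G4A, the phospholipase that releases arachidonic acid, held 233, 236 and 244 CPM untreated, 108, 122 and 112 with IL4 and 107, 89.2 and 90.8 with the compound. Its net change was -1.31 ± 0.07 (adjusted p = 1.82e-11). The thromboxane synthase TBXAS1 stood at -0.50 ± 0.13 and did not pass without compound replicate 2 (-0.42) or 3 (-0.39).

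**Figure D4:**
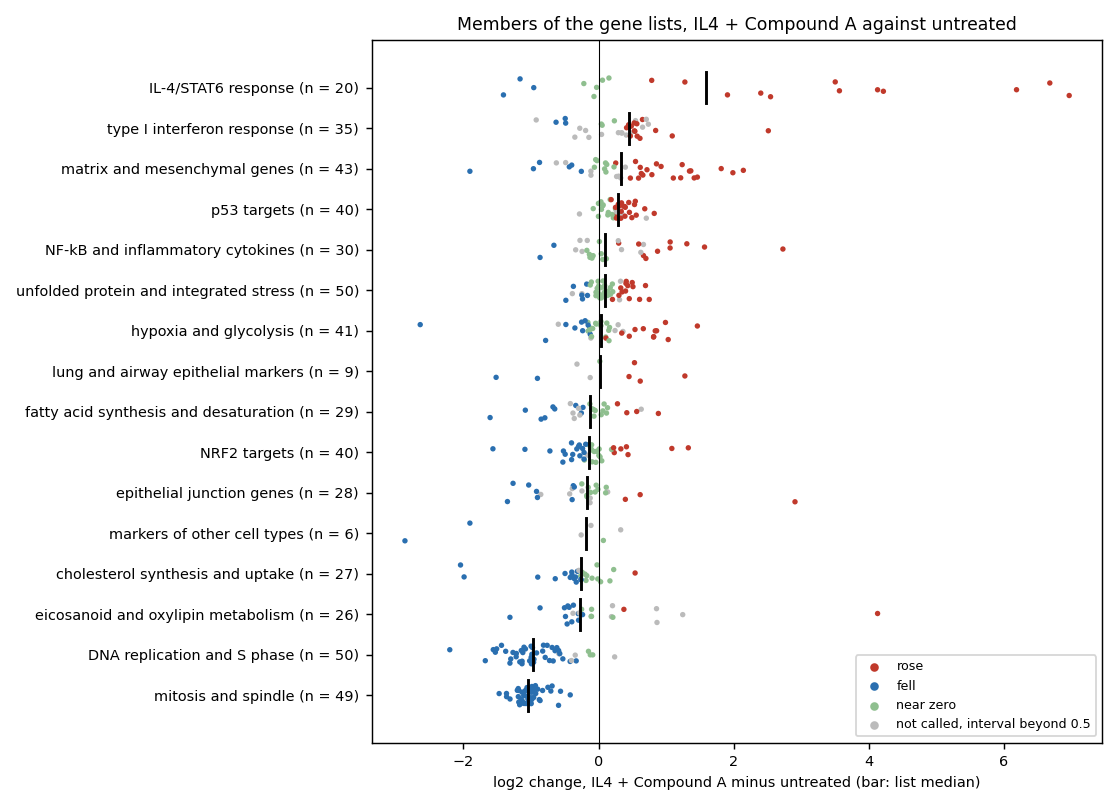
Log2 change of IL4 plus Compound A minus untreated (horizontal axis) for every tested member of the 16 gene lists (rows, ordered by median), with 1 point per gene coloured by outcome and a bar at the list median. The mitosis and replication lists lie lowest with medians of -1.04 and -0.97, and the IL-4/STAT6 list lies highest at 1.59.

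Of 22 lung and airway epithelial markers, 9 were tested, of which 4 rose, 2 fell and 1 was near zero (2 without untreated replicate 1), beside 12.7%, 13.5% and 48.6% of all genes. The summed level of the 22 markers was 6250 to 7083 CPM in untreated and 8528 to 9291 in IL4 plus Compound A libraries, with 9701 to 12000 for IL4. Most of this sum was KRT8, KRT18 and KRT7, with means of 2840, 2360 and 1220 CPM untreated and 3890, 3630 and 1240 with the compound. Of the 22 markers, 13 averaged below 1 CPM in every group, and SFTPB, SLC34A2, PDPN, HOPX and SCGB1A1 were at 0 in every library. KRT18 rose by 0.62 ± 0.06, the adhesion molecule EPCAM fell by 0.90 ± 0.15 and the basal cell factor TP63 fell by 1.52 ± 0.20. LAMP3, a lysosomal protein of type II cells, stood at 1.28 ± 0.36, but its values of 1.05 and 0.89 without untreated replicate 1 or compound replicate 2 did not pass. Of 22 markers of other cell types, 6 were tested, and of these ALB and LUM fell, none rose and 1 was near zero (2 without compound replicate 2), beside the same shares of all genes. With the compared groups alone, 1 fell. The sum of these 22 markers was 59.3 to 69.3 CPM untreated and 57.9 to 68.9 with the compound, beside 87.5 to 122 for IL4. Most of it was TUBB3, with means of 38.4, 40.6 and 59.3 CPM in the same groups. PTPRC, CSF1R, CD3E, MS4A1 and NKG7 were at 0 in every library.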

How the data were processed

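The authors deposited 1 table of expected counts, the estimated reads per gene that RSEM returns, for 15 libraries. Reads were aligned with Bowtie2 2.1.0 and quantified with RSEM 1.2.15 on hg38, per the submitters' processing notes; the sources used here do not give annotation, strand setting or read filters. Of 26475 genes, 12795 passed edgeR's filterByExpr after rounding.

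All 15 libraries were scaled by TMM and entered 1 fit in edgeR 4.0.16 (robust quasi-likelihood test, 1 coefficient per group, R 4.3.3). Benjamini-Hochberg adjustment covered every tested gene, and 0.05 was the threshold. SE and 95% intervals are of the fitted log2 change, and CPM are counts per 1e+06 counts. On simulated data with 200 of 12795 genes changed, changes of log2 0.5, 1 and 2 were recovered in 56.7%, 89.6% and 98.5% of cases. Of the genes called there, 1.81% were unchanged, and 3 genes with a change of at least log2 0.5 were labelled near zero. The changed genes were drawn from those with a mean of at least 1 CPM, and no other gene differed between groups. The simulation held no GC trend and no library that stood apart. These rates therefore do not cover genes of lower mean or data in which 26.2% of genes were called.

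The comparison, its members and the 16 gene lists were chosen with earlier results of these data known. Genes were named by rule: the 12 largest changes each way, up to 4 passing members per list, 20 fixed genes, and up to 6 per direction of the patterns described. MUC5AC, SPDEF, FOXA3, STARD4, MDM2, CDH1, OAS1, OAS3, TRIM14, NFKBIZ, NQO1, GCLM, SLC7A11, ATF4, ASNS and EPHX2 were named after their values were seen. Some genes that the rule names are not reported here. Coordinates are from GENCODE 29. Alternatives were upper-quartile or RLE scaling, no filter, a filter of 1 CPM in 3 libraries, a replicate block, the compared groups only, each untreated and compound library or IL4 replicate 1 left out, control siRNA as reference, DESeq2 1.42.0 and, added after seeing the data, a GC content correction (loess span 0.3) and IL4 replicates 2 or 3 left out.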

Additional observations from a re-analysis of the deposited data

How the results depend on the processing

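Under scaling, filter, block, GC, left-out-library and DESeq2 alternatives, the counts over all genes stayed within 1.5 times of the reported ones. Leaving out 1 library gave 1342 to 2122 genes that rose, 1183 to 2272 that fell, 237 to 257 and 238 to 333 at 2-fold or more, and 5717 to 6234 near zero. Apart from these, the GC correction gave 2191 and 2297, the compared groups alone 2016 and 2129, and DESeq2 1488 and 1471. A near-zero limit of 0.3 left 2967 genes near zero in place of 6223. Deviations of same-numbered untreated and compound libraries correlated at 0.0219, -0.0242 and -0.0119. Same-numbered untreated and IL4 libraries correlated at 0.286, 0.0769 and 0.11, and IL4 and compound libraries at 0.0998, 0.0232 and -0.0432. Differently numbered libraries ranged from -0.0209 to 0.0368 for untreated and compound and from -0.23 to 0.135 for untreated and IL4. For IL4 and compound they ranged from -0.127 to 0.138. Whether same-numbered libraries belong together was not tested. A replicate block gave 1787 that rose, 1871 that fell and 6154 near zero. With control siRNA as reference, the value of AKR1B1 against IL4 went from 0.02 to -0.21; the cause was not tested. The GC correction and the fit of the compared groups alone made GDF15 pass against untreated (adjusted p = 0.00361 and 0.0209). The GC correction moved the count of junction genes that fell from 8 to 13, and that of hypoxia genes near zero from 15 to 9. Eicosanoid genes near zero went from 5 to 3 under the replicate block and with the compared groups alone. At depths of 6407936 to 11031246 counts, 3223 genes were neither called nor near zero.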
